A study of Arabidopsis thaliana with 5 samples.

Results

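The genes described here are the cellulose synthases of Arabidopsis thaliana and 2 of their helpers, 10 loci taken by locus number from the 33602 loci in the deposited tables. The primary wall class was CESA1 (AT4G32410), CESA3 (AT5G05170, also CEV1), CESA6 (AT5G64740), CESA2 (AT4G39350), CESA5 (AT5G09870), COB (AT5G60920) and KOR1 (AT5G49720, also GH9A1). The secondary wall class was CESA4 (AT5G44030), CESA7 (AT5G17420, also IRX3) and CESA8 (AT4G18780, also IRX1). RNA came from sorted root tip nuclei of 2 groups, with 3 libraries of the smr1 mutant (replicates 1, 2 and 4) and 2 of the wild-type accession Col-0 (replicates 2 and 4), biological replicates according to the series' design text. In both groups GUS-GFP was expressed from the SMR1 promoter, and only nuclei sorted as GFP-positive, 120000 per library, were collected. The sort selected against nuclei without SMR1 promoter activity, and its purity was not tested. Seedlings were 5 days old in both groups, the cut tips were 0.5 cm long, and protoplasts were made from the tips of all libraries, a step that digests cell walls. Neither the kind of smr1 allele nor the number of reporter lines is stated in the labels. SMR1 encodes an inhibitor of cyclin-dependent kinases that promotes endoreplication, and the comparison asks which transcripts differ in these nuclei when it is mutated.

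Cellulose is made at the plasma membrane by rosette-shaped complexes of CESA subunits, which extrude glucan chains that assemble into microfibrils. Growing cells use complexes of CESA1, CESA3 and a CESA6-type subunit, a place that CESA2 and CESA5 can partly fill, to build the extensible primary wall. Xylem vessels use a separate complex of CESA4, CESA7 and CESA8 to lay down the thick secondary wall after growth has stopped. KOR1 is a membrane-bound endoglucanase that accompanies the complex, and COB is a glycosylphosphatidylinositol-anchored protein needed for oriented cell expansion.

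The 8 CESA genes are paralogues, so the reads can be told apart only where their sequences differ. The 45-base coding stretch around the QxxRW motif, part of the catalytic site of these glycosyltransferases, is shown for each gene because it holds a motif that all 8 proteins share, while its bases differ between every pair of genes. Capitals mark the codons of QxxRW, and all sequences are RefSeq TAIR10.1, read 5′ to 3′ on the coding strand.
CESA1: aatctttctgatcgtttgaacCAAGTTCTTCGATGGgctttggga
CESA3: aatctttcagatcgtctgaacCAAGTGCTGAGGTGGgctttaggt
CESA6: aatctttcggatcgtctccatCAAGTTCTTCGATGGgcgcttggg
CESA2: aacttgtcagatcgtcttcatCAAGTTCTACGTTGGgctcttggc
CESA5: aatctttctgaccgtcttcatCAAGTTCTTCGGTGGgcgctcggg
CESA4: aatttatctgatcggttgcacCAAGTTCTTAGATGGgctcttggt
CESA7: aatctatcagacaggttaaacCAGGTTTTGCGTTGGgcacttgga
CESA8: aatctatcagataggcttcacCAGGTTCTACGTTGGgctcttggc

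These stretches lie at chr4:15641862-15641906 (CESA1, minus strand), chr5:1531324-1531368 (CESA3, minus), chr5:25885364-25885408 (CESA6, plus), chr4:18300994-18301038 (CESA2, plus) and chr5:3077028-3077072 (CESA5, plus). Those of the secondary wall genes lie at chr5:17718376-17718420 (CESA4, plus), chr5:5737707-5737751 (CESA7, minus) and chr4:10313703-10313747 (CESA8, minus). CESA6 and CESA5 had the closest pair of stretches, with 5 of 45 bases different, and the most distant pairs, CESA7 against CESA2, CESA3, CESA5 or CESA6, differed at 15. Over the whole coding sequence CESA6 and CESA5 were 85.8% identical, with a longest shared run of 50 bases. The 3 pairs within the secondary class were 69.5% to 70.1% identical with no shared run over 20 bases, and the 15 pairs across classes were 68.5% to 71.0% identical. Each of the 10 genes had a single transcript model in the tables, and its expected count was a whole number, within 0.001 reads, in all 5 libraries. A whole number in an expected count gives no sign of reads split in fractions between this model and another. It does not show whether reads that fit several genes were given wholly to a single model.

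Library totals were 24918795 to 26823753 reads. The members were among the better covered genes, from 3064 reads for CESA5 in Col-0 replicate 2 to 40334 reads for CESA1 in Col-0 replicate 4, so that counting error alone was between 0.50% and 1.81% of a value. The targeted gene SMR1 was at 6.02, 4.70 and 7.06 CPM in smr1 replicates 1, 2 and 4, against 10.97 and 21.6 CPM in Col-0 replicates 2 and 4 (log2 fold change -1.46, SE 0.31, edgeR adjusted p = 0.725). CPM is the count relative to library size, scaled by TMM factors unless stated otherwise. Markers of root hair, endodermis, root cap, phloem, xylem and non-hair epidermis all had reads. The 4 photosynthetic shoot genes had reads too, and summed to 11.1, 11.1 and 1.07 CPM in smr1 and 4.85 and 1.20 CPM in Col-0, in smr1 replicates 1 and 2 close to the lowest sums of the root hair (11.1 CPM) and phloem (10.8 CPM) lists. The 7 xylem markers summed to 1004 to 1378 CPM over the libraries and the 3 meristem markers to 1.72 to 7.11 CPM. Of the other lists, non-hair epidermis summed to 265, 247 and 267 CPM in smr1 and 207 and 229 CPM in Col-0, and root cap to 13.4, 17.3 and 17.5 CPM in smr1 and 11.1 and 13.01 CPM in Col-0. The sums of root hair, endodermis, phloem, pericycle and meristem markers overlapped between the groups. Single markers in these lists did not all overlap. The meristem regulators PLT1 and PLT2 were higher in smr1 without overlap (log2 fold changes 0.84 and 1.40, edgeR adjusted p = 0.725 for both), at 0.625 to 2.33 CPM in smr1 and 0.15 to 1.07 CPM in Col-0. All 5 root hair markers had negative log2 fold changes, with a median of -0.41, and 2 of them, EXPA18 and RHD6, were lower in smr1 without overlap. Outside these lists, GL2 and WER of the 3 non-hair epidermis markers and BRN1 and BRN2 of the 4 root cap markers were higher without overlap. Of the 7 xylem markers 2 were lower and 1 was higher. Among all genes tested 10.1% were lower and 13.7% higher without overlap. With the deposited TPM values, which are corrected for length, RHD6 and both lower xylem markers, XCP2 and LAC4, overlapped. The root cap marker CEL5 was then higher without overlap. On that scale 5.89% of all genes were lower and 20.4% higher. The part of these cell types in the results on the 10 genes was not tested.

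The levels of the primary wall genes spanned a wide range, in much the same order in every library. On the deposited TPM scale, which corrects for length and so allows genes to be compared, KOR1 was the most abundant, at 341, 326 and 322 TPM in smr1 and 332 and 358 TPM in Col-0. CESA1 followed at 319, 293 and 312 TPM in smr1 and 295 and 315 TPM in Col-0, and lay below KOR1 in 5 of 5 libraries. CESA3, CESA6 and COB came next, with means in smr1 of 234 ± 15.6, 234 ± 8.18 and 221 ± 18.7 TPM (SD, n = 3) and in Col-0 of 226 ± 18.4, 226 ± 1.23 and 207 ± 36.4 TPM (SD, n = 2). These 3 genes could not be ordered, since CESA3 lay above CESA6 in 3 of 5 libraries and CESA6 above COB in 3 of 5. CESA2, an alternative CESA6-type subunit, lay well under them at 59.4 to 108 TPM, and CESA5, the other alternative, was the least abundant member, at 25.8 to 33.7 TPM over all libraries.

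Secondary wall genes lay below COB and above CESA5 in all 5 libraries. CESA7 and CESA4 were close to each other, with 73.0 ± 6.32 and 69.8 ± 3.57 TPM in smr1 (SD, n = 3) and 79.6 ± 1.27 and 79.5 ± 1.13 TPM in Col-0 (SD, n = 2). CESA2 and CESA7 could not be ordered, since CESA2 lay above CESA7 in 2 of 5 libraries. CESA8 was lower than CESA4 in 5 of 5 libraries, at 41.9 ± 1.93 TPM in smr1 and 48.5 ± 1.31 TPM in Col-0. All 10 genes were above the median of the genes tested, from the 76.5th percentile of mean TPM for CESA5 to the 97.7th for KOR1.

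**Figure D1:**
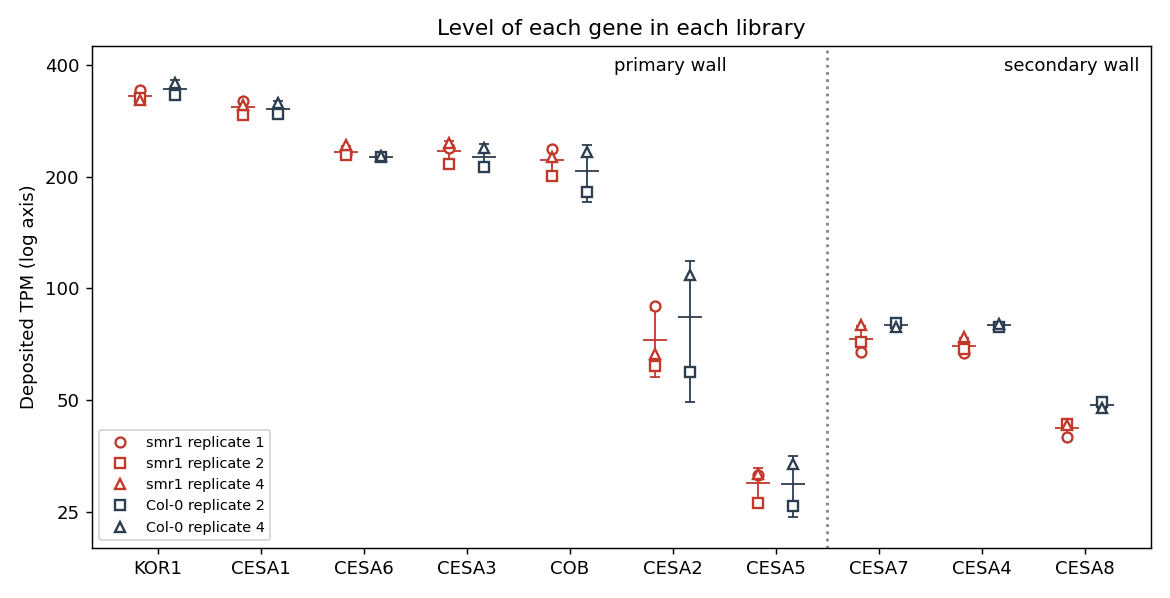
Deposited TPM of the 10 genes in each library on a log axis, with smr1 left of Col-0 for each gene, marker shape giving the replicate number, and horizontal ticks with bars giving the group mean ± SD (n = 3 and 2). KOR1 and CESA1 lie at 293 to 358 TPM, CESA2 spreads most, and all 3 smr1 points of CESA4 and of CESA8 lie under both Col-0 points.

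Between the genotypes, the core primary wall subunits were at nearly equal levels. CESA1, whose rsw1 mutant has radially swollen roots, was at 1463, 1355 and 1472 CPM in smr1 and 1452 and 1512 CPM in Col-0. The groups overlapped, and the log2 fold change was -0.05 with a 95% interval of the fit from -0.30 to 0.20. CESA3 was at 1078, 987 and 1144 CPM in smr1 and 1033 and 1129 CPM in Col-0, with a log2 fold change of -0.02 (95% interval -0.29 to 0.26). CESA6 was at 1054, 1060 and 1150 CPM in smr1 and 1115 and 1094 CPM in Col-0, with a log2 fold change of -0.02 (95% interval -0.27 to 0.22). For these 3 genes the intervals leave room for folds of 0.81 to 1.20, and no difference beyond the spread between libraries was detected.

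CESA2 was the most variable member. Its level was 411, 286 and 314 CPM in smr1 and 294 and 522 CPM in Col-0, so that the highest library had 1.82 times the level of the lowest, against 1.09 times for CESA6. Col-0 replicate 4 and smr1 replicate 1 stood above the other libraries, whatever the genotype. The log2 fold change of -0.27 had a 95% interval from -0.90 to 0.35 (edgeR adjusted p = 0.849), and it was 0.19 with Col-0 replicate 4 left out and -0.64 with Col-0 replicate 2 left out. CESA5 was at 142, 121 and 147 CPM in smr1 and 126 and 160 CPM in Col-0, with a log2 fold change of -0.06 (95% interval -0.41 to 0.28), and without Col-0 replicate 4 it was 0.11. CESA2 per CESA6, per length, was 0.390, 0.270 and 0.273 in smr1 and 0.264 and 0.477 in Col-0, and the corresponding ratio for CESA5 was 0.137, 0.116 and 0.130 in smr1 and 0.115 and 0.148 in Col-0. In both ratios the lowest value of either group came from replicate 2.

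The helpers of the primary wall complex did not pass the test. COB was at 423, 362 and 416 CPM in smr1 and 349 and 435 CPM in Col-0, with overlapping groups and a log2 fold change of 0.03 (95% interval -0.29 to 0.36). Leaving out Col-0 replicate 4 gave 0.19, and leaving out Col-0 replicate 2 gave -0.13. KOR1 was at 861, 833 and 839 CPM in smr1 and 902 and 946 CPM in Col-0, so that no smr1 library reached the lower Col-0 value. Its log2 fold change was -0.13 with a 95% interval from -0.36 to 0.10 (edgeR adjusted p = 0.800). Without TMM factors, and on the deposited TPM scale, the KOR1 groups overlapped. KOR1 per CESA1, per length, a ratio within each library, was 1.07, 1.12 and 1.03 in smr1 and 1.13 and 1.14 in Col-0. That ratio did not overlap between the groups, whereas COB per CESA1 did.

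All 3 secondary wall genes were lower in smr1 than in Col-0 without overlap of the libraries, by small amounts that did not pass the test over all genes. CESA4 was at 298, 307 and 337 CPM in smr1 and 376 and 374 CPM in Col-0, with means of 314 ± 20.8 (SD, n = 3) and 375 ± 1.60 CPM (SD, n = 2). The log2 fold change of CESA4 was -0.25 with a 95% interval from -0.50 to -0.01 (edgeR adjusted p = 0.725). CESA8 was at 165, 181 and 183 CPM in smr1 and 221 and 207 CPM in Col-0, with means of 177 ± 10.1 (SD, n = 3) and 214 ± 9.75 CPM (SD, n = 2). The log2 fold change of CESA8 was -0.28 with a 95% interval from -0.52 to -0.04 (edgeR adjusted p = 0.725). CESA7 was at 292, 315 and 356 CPM in smr1 and 375 and 358 CPM in Col-0, so that smr1 replicate 4 lay next to Col-0 replicate 4. The log2 fold change of CESA7 was -0.19 with a 95% interval from -0.47 to 0.09 (edgeR adjusted p = 0.760), and it was -0.13 with smr1 replicate 1 left out. CESA4 and CESA8 lay below Col-0 in every smr1 library also without TMM factors and on the TPM scale, whereas the CESA7 groups then overlapped.

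**Figure D2:**
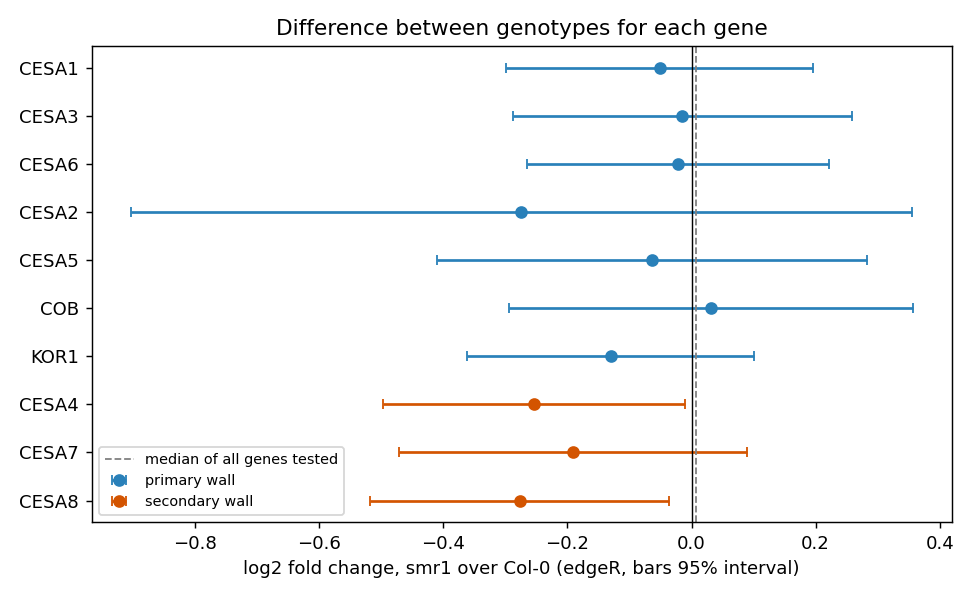
Log2 fold change of each gene, smr1 over Col-0, from edgeR with its 95% interval (3 and 2 libraries). Points of the 3 secondary wall genes lie from -0.28 to -0.19, those of CESA1, CESA3, CESA6 and COB lie from -0.05 to 0.03, and the CESA2 interval is the widest.

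Over both classes, edgeR called 0 of the 10 genes at an adjusted p under 0.05, as did DESeq2 and limma voom. Over the 20151 genes tested, edgeR called 0.00496% higher in smr1 and 0.0% lower, which was 1 gene and none. At an unadjusted p under 0.05 stood 2 of the 10, CESA4 and CESA8, against 2.89% of all genes lower and 3.96% higher. Without overlap of the libraries, 4 of the 10 genes were lower in smr1 and 0 were higher, against 10.1% lower and 13.7% higher among all genes. By class these were 1 of 7 primary wall genes and 3 of 3 secondary wall genes. The median log2 fold change was -0.05 for the primary wall class and -0.25 for the secondary wall class, against 0.01 for all genes tested. The choice of scaling matters for these counts. Without TMM factors 2 of the 10 lay below and 0 above, against 6.24% and 19.6% of all genes, and on the TPM scale 2 lay below and 1 above (CESA6), against 5.89% and 20.4%.

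Summed over its members, the secondary wall class was at 755, 803 and 877 CPM in smr1 and 972 and 938 CPM in Col-0, and the ratio of means was 0.850. The primary wall class was at 5433, 5005 and 5483 CPM in smr1 and 5270 and 5799 CPM in Col-0, with a ratio of means of 0.959. As a share of all reads, which no scaling factor touches, the secondary wall class made up 0.0774%, 0.0809% and 0.0890% in smr1 and 0.0928% and 0.0935% in Col-0. The primary wall class made up 0.539% ± 0.030 in smr1 (SD, n = 3) and 0.540% ± 0.053 in Col-0 (SD, n = 2). In these bulk libraries fewer nuclei of a type and less RNA per nucleus cannot be told apart.

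A ratio within a library depends on no scaling between libraries. Secondary wall CESA reads per length were 19.2%, 22.2% and 21.9% of primary wall CESA reads in smr1 and 25.5% and 22.4% in Col-0. The groups did not overlap, but smr1 replicate 2 and Col-0 replicate 4 were nearly level. The mean log2 difference was -0.18. Leaving out Col-0 replicate 2 gave -0.09, leaving out smr1 replicate 1 gave -0.12, and leaving out Col-0 replicate 4 gave -0.28. With CESA2 left out of the primary sum, because of its uneven libraries, the difference was -0.20, an alternative chosen after seeing the data.

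Within each class most subunits kept similar proportions over the libraries, and CESA2 did not. Its share of primary wall CESA reads per length was 9.85%, 7.46% and 7.38% in smr1 and 7.26% and 11.7% in Col-0, while CESA5 took 3.39% ± 0.16 in smr1 and 3.40% ± 0.35 in Col-0. CESA1 took 35.1% ± 0.38 of primary wall CESA reads per length in smr1 (SD, n = 3) and 35.1% ± 1.34 in Col-0 (SD, n = 2). CESA3 took 26.6% ± 0.66 in smr1 and 25.9% ± 0.09 in Col-0, and CESA6 took 26.6% ± 1.25 in smr1 and 26.1% ± 2.08 in Col-0. The CESA3 share was higher in smr1 without overlap, at 26.2% to 27.4% against 25.9% and 26.0% in Col-0, a gap smaller than the spread within smr1. The 3 CESA6-type subunits together stood at 1.097, 1.081 and 1.092 times CESA1 in smr1 and 1.05 and 1.17 times in Col-0, and CESA3 stood at 0.759 ± 0.027 times CESA1 in smr1 and 0.741 ± 0.026 times in Col-0. In the secondary wall class CESA4 took 37.8% ± 0.64 in smr1 and 38.3% ± 0.81 in Col-0, CESA7 took 39.5% ± 1.01 in smr1 and 38.3% ± 0.34 in Col-0, and CESA8 took 22.7% ± 0.86 in smr1 and 23.4% ± 0.47 in Col-0. Of these the CESA7 share alone did not overlap, with 38.7% the lowest in smr1 and 38.6% the highest in Col-0. CESA7 thus stood at 1.04 ± 0.039 times CESA4 in smr1 and 1.00 ± 0.030 times in Col-0, and CESA8 at 0.601 ± 0.026 times CESA4 in smr1 and 0.610 ± 0.025 times in Col-0. The transcripts of the secondary wall genes were therefore not at equal levels, with CESA8 lowest in every library.

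**Figure D3:**
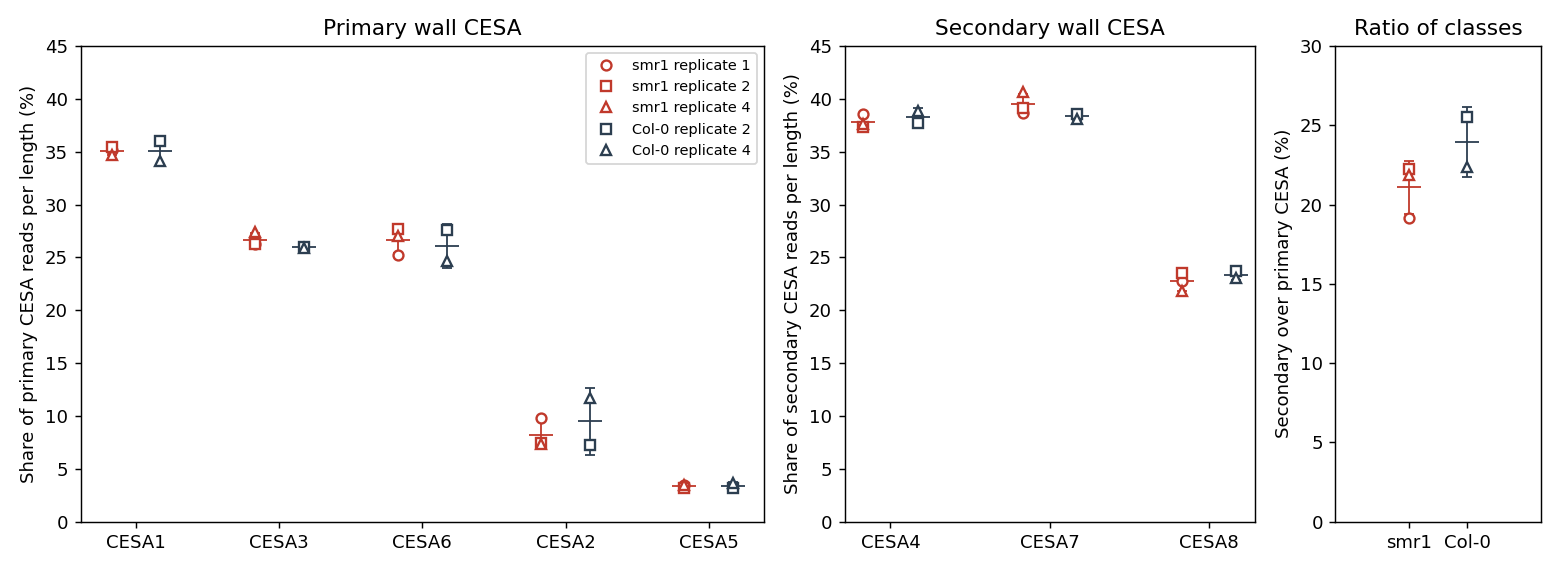
Share of each CESA in the reads per length of its class (left and middle, percent) and secondary over primary wall CESA reads per length (right, percent), per library, with smr1 left of Col-0 and group mean ± SD (n = 3 and 2). Shares of CESA1, CESA4, CESA7 and CESA8 differ little between libraries, and the class ratio is 19.2% to 22.2% in smr1 and 22.4% to 25.5% in Col-0.

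The 3 secondary wall genes had similar profiles over the libraries. Their log2 levels, each centred on its own mean over the 5 libraries, differed by a root mean square of 0.05 between CESA4 and CESA8, 0.05 between CESA4 and CESA7 and 0.07 between CESA7 and CESA8. Among 9975 other genes with a mean of at least 10 CPM, CESA8 was the 22nd nearest profile to CESA4 and CESA7 the 24th. CESA8 was the 85th nearest to CESA7, and CESA7 the 92nd nearest to CESA8. CESA1 and CESA3 had a distance of 0.04, and CESA5 and COB one of 0.06. CESA3 was the 169th nearest profile to CESA1, and CESA1 the 104th nearest to CESA3. CESA2, with 0.23 to CESA5, stood far from the rest. Outside the 10 genes, the profiles nearest to the mean of CESA4, CESA7 and CESA8 were those of AT1G75400 (a RING/U-box protein), AT5G55400 (an actin-binding calponin homology protein), APK (an APS kinase), UGE1 (a UDP-glucose 4-epimerase) and AT1G58070 (a WEB family protein), at distances of 0.02 to 0.03. UGE1 was at 65.9, 72.4 and 80.3 CPM in smr1 and 89.1 and 85.2 CPM in Col-0, the same order of libraries as for CESA7. Nearest to the mean of CESA1 and CESA3 were AT3G01930 (a major facilitator superfamily protein), AT4G35080 (of a nickel transport family), ETL1 (a SNF2-type helicase), PIP5K2 (a phosphatidylinositol phosphate kinase) and VIIIA (a P-loop protein), at 0.01 to 0.02. With 5 libraries and so many genes such closeness describes these libraries only.

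With TMM factors the summed xylem markers were ordered over the libraries as the secondary wall class sum was. In the xylem sum smr1 replicate 4 and Col-0 replicate 4 were nearly level. The order depended on the scaling. Without TMM factors the secondary wall class sum was 928 CPM in Col-0 replicate 2 and 935 CPM in Col-0 replicate 4. The summed level of 7 markers, the switches VND6, VND7 and MYB46, the vessel proteases XCP1 and XCP2, TED6, which binds the secondary wall complex, and the laccase LAC4, was 1004, 1168 and 1272 CPM in smr1 and 1378 and 1272 CPM in Col-0. XCP1 and XCP2 gave most of its reads, none of the 7 was at 0, and 6 of 7 had negative log2 fold changes, with a median of -0.18. VND7, a master regulator of vessel formation, was the exception at 0.16, with 16.0, 16.0 and 19.3 CPM in smr1 and 14.99 and 15.7 CPM in Col-0. Single markers did not all keep the order of the sum. XCP1 was at 489 CPM in smr1 replicate 4 and 488 CPM in Col-0 replicate 4. On the deposited TPM scale XCP1 and XCP2 were at 356 and 373 TPM in smr1 replicate 4. In Col-0 replicate 4 they were lower, at 352 and 371 TPM. MYB46 was at 55.5 CPM in smr1 replicate 2 and 51.3 CPM in Col-0 replicate 4. Summed CESA4, CESA7 and CESA8 per summed xylem marker was 0.751, 0.688 and 0.690 in smr1 and 0.706 and 0.737 in Col-0, and these overlapped. The part of the xylem share of nuclei in the lower secondary wall values was not tested.

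**Figure D4:**
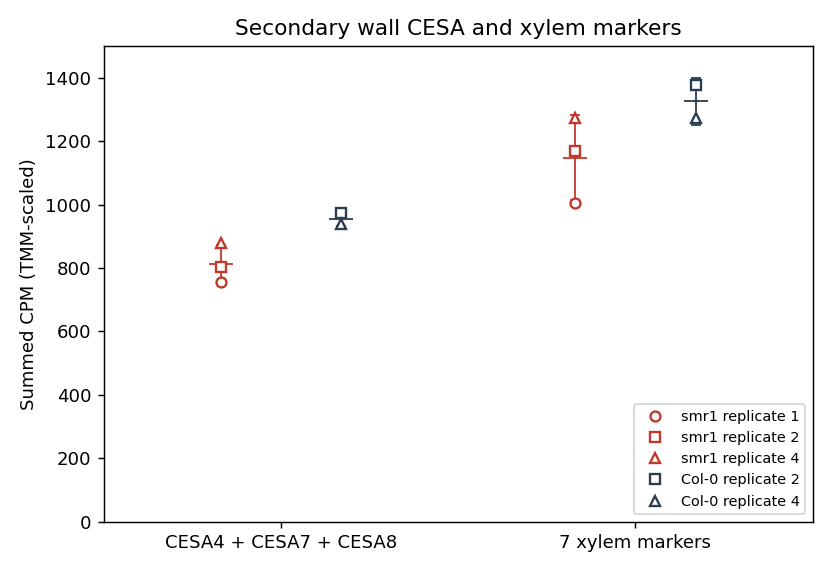
Summed TMM-scaled CPM of CESA4, CESA7 and CESA8 (left) and of 7 xylem markers (right) per library, with smr1 left of Col-0 and group mean ± SD (n = 3 and 2). On this scale both sums are lowest in smr1 replicate 1 and highest in Col-0 replicate 2.

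Other genes of the secondary wall were read from a list of 27, which holds the 7 xylem markers too. Of its 26 tested genes 23 had negative log2 fold changes, 10 were lower in smr1 without overlap of the libraries and 1 higher, and the median was -0.23, against 10.1% and 13.7% of all genes and a median of 0.01. Without TMM factors 6 lay below Col-0 and 1 above, against 6.24% and 19.6% of all genes. On the TPM scale 7 lay below and 1 above, against 5.89% and 20.4%. None was called by edgeR, DESeq2 or limma voom. At an unadjusted p under 0.05 stood 2 lower and 0 higher, against 2.89% and 3.96% of all genes. IRX15-L, of a protein family needed for normal xylan, was at 19.6, 19.4 and 18.9 CPM in smr1 and 26.4 and 22.7 CPM in Col-0 (log2 fold change -0.35, SE 0.12, edgeR adjusted p = 0.725). LAC11, a laccase of lignin formation, was at 112, 129 and 130 CPM in smr1 and 164 and 146 CPM in Col-0 (log2 fold change -0.33, SE 0.11, edgeR adjusted p = 0.725). Both had groups that did not overlap. FLA12, a fasciclin-like arabinogalactan protein of secondary walls, had overlapping groups, at 52.6, 43.9 and 78.6 CPM in smr1 and 38.6 and 64.1 CPM in Col-0. Its log2 fold change of 0.18 turned to -0.14 with Col-0 replicate 2 left out and to -0.09 with smr1 replicate 4 left out.

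Genes listed as related to the cellulose synthase complex, CESA9 and CESA10 among them, had about as many positive as negative values. Of 24 listed, 23 were tested, 11 had negative and 12 positive log2 fold changes, and the median was 0.00. Without overlap of the libraries 6 were lower in smr1 and 1 was higher, against 10.1% lower and 13.7% higher among all genes. These calls depended on the scaling. On the deposited TPM scale CMU2, KOR2 and SUS4 stayed lower, while the groups overlapped for CESA10, CC1 and SHOU4L. Among all genes 5.89% were lower and 20.4% higher on that scale. None was called by edgeR, DESeq2 or limma voom. At an unadjusted p under 0.05 stood 2 lower and 0 higher, against 2.89% lower and 3.96% higher among all genes. CMU2, a kinesin light chain-related protein that stabilises cortical microtubules beneath the complexes, was at 216, 209 and 192 CPM in smr1 and 274 and 244 CPM in Col-0 (log2 fold change -0.33, SE 0.11, edgeR adjusted p = 0.725). KOR2, a relative of KOR1, was at 90.3, 86.5 and 78.7 CPM in smr1 and 103 and 102 CPM in Col-0 (log2 fold change -0.26, SE 0.10, edgeR adjusted p = 0.725). CSI1, the linker between the complex and microtubules, was the gene that lay above, at 821, 758 and 784 CPM in smr1 and 698 and 706 CPM in Col-0 (log2 fold change 0.17, SE 0.10, edgeR adjusted p = 0.752). AT1G78880 had a log2 fold change of 0.14 with overlapping groups. The remaining CESA genes, which stand in this list and act mainly in seeds, were low, against a floor of detection of 0.112 to 0.120 CPM. CESA9 was at 0.36 ± 0.30 CPM in smr1 and 0.30 ± 0.21 CPM in Col-0. CESA10, among the 6 that were lower without overlap, was at 1.38 ± 0.053 CPM in smr1 and 2.01 ± 0.76 CPM in Col-0.

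The COBRA-like family holds the relatives of COB. COBL4, also called IRX6, is its secondary wall member, stands in the list of secondary wall genes too, and was at 31.7, 34.7 and 37.2 CPM in smr1 and 39.9 and 43.0 CPM in Col-0, without overlap (log2 fold change -0.26, SE 0.12, edgeR adjusted p = 0.726). COBL5 was higher in smr1 without overlap (log2 fold change 0.15). Of the 9 tested genes of the family 6 had positive values, with a median of 0.15, and none was called by edgeR, DESeq2 or limma voom. Without overlap 1 was lower and 1 higher, against 10.1% and 13.7% of all genes, and 0 stood at an unadjusted p under 0.05, against 2.89% lower and 3.96% higher among all genes. COBL7 and COBL11 had log2 fold changes of 0.33 and 0.42 and COBL1 of -0.42, all 3 with overlapping groups. On the deposited TPM scale the COBL7 groups did not overlap, at 12.5, 11.6 and 15.3 TPM in smr1 and 8.65 and 11.4 TPM in Col-0.

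**Figure D5:**
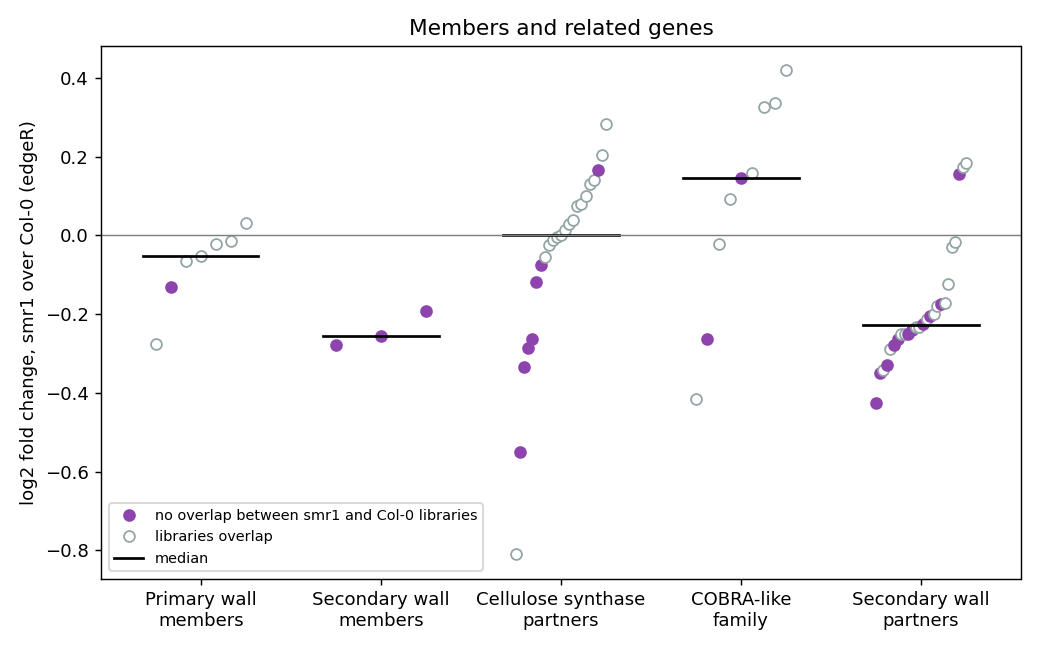
Log2 fold change, smr1 over Col-0, of every tested gene in 5 sets, with filled points where smr1 and Col-0 libraries did not overlap and a line at the median. Secondary wall members and partners have medians of -0.25 and -0.23, and the cellulose synthase partners are spread about 0.00.

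The genes lie on chromosomes 4 and 5 of TAIR10.1, CESA4 at chr5:17714390-17719723 (plus strand), CESA7 at chr5:5736630-5741500 (minus) and CESA8 at chr4:10312624-10316886 (minus), each with 12 coding exons, against 13 or 14 in the primary wall CESA genes. The 300 bases before each annotated start were searched on both strands for the SMRE, the element recognised by the xylem switches MYB46 and MYB83, spelled ACC, then A or T, then A, then A or C, then T or C, which gives 8 forms. CESA4 had a match 81 bases before its start and CESA8 279 bases before, while CESA7 had none in this window. Among primary wall genes CESA1 and COB had 1 match each and CESA5 had 2. Of all 27443 protein-coding genes, 33.9% had at least 1 match in a window of that length and 8.06% had at least 2. A match is a description of the sequence, and nothing follows about the factors from a window without one.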

How the data were processed

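Per the file headers, the authors deposited an expected count and a TPM value for 41671 transcript models. The submitters' processing notes name Salmon 0.7.2, CASAVA and TAIR10 with no roles. How strand was handled in counting is not given in the sources used. Deposited TPM values were scaled by the authors to 1 sum per library and keep no depth. Here they served to compare genes with each other and, as an alternative scaling, to compare the groups. Expected counts were summed per locus and rounded. Of 34676 models of loci with a coding sequence in TAIR10.1, 96.7% had a length equal to a coding length there, as had all 10 genes, so reads from untranslated ends mostly went uncounted.

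Genes were tested with edgeR 4.0.16 (R 4.3.3) on the summed counts after its expression filter (minimum count 10, minimum total 15), TMM factors and robust quasi-likelihood F tests (term genotype, 3 residual degrees of freedom), with Benjamini-Hochberg adjustment over 20151 genes at 0.05, two-sided. Fold changes are smr1 over Col-0, and SE and 95% intervals come from the F statistic. Profiles used log2 CPM with a prior count of 1. Alternatives were DESeq2 1.42.0, limma 3.58.1 voom, other scalings, no filter, a replicate block and leaving out each library. Of these steps the edgeR fit alone was tested on simulated counts, with larger fold changes than those of the 10 genes. The detection floor was 3 reads per library and covers counting error only. Coding and upstream sequences came from RefSeq TAIR10.1, aligned with Biopython 1.88. The members and lists were chosen with earlier results of these data known, so no p was adjusted over a list and no class sum was tested. The text names the 10 members, SMR1, up to 2 list genes per direction with the smallest p, and the 5 nearest profiles of each class. CESA9, CESA10, COBL5, CC1, SHOU4L, SUS4 and the markers are named outside that rule or after their values were seen.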

Additional observations from a re-analysis of the deposited data

How the results depend on the processing

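The log2 fold changes of the 10 genes had adjusted p above 0.05 in all 110 combinations of gene and alternative setting run, the lowest being 0.463, and 101 of them had the sign given in the report, among them all 33 for CESA4, CESA7 and CESA8. Without any one library the ranges were -0.31 to -0.22 for CESA4, -0.27 to -0.13 for CESA7, -0.33 to -0.23 for CESA8, -0.17 to -0.10 for KOR1 and -0.09 to -0.01 for CESA1. They crossed zero for CESA3 (-0.086 to 0.042), CESA6 (-0.063 to 0.00054), CESA2 (-0.64 to 0.19), CESA5 (-0.23 to 0.11), COB (-0.13 to 0.19) and FLA12 (-0.14 to 0.59). They also crossed zero for the neighbours of CESA1 and CESA3, namely AT3G01930 (-0.063 to 0.031, and -2.27 with only the first transcript model of each locus counted), AT4G35080 (-0.12 to 0.011), ETL1 (-0.073 to 0.026), PIP5K2 (-0.10 to 0.033) and VIIIA (-0.10 to 0.020). Over all genes the number called was 1 in the fit reported, 0 without any one library and with limma voom, 2 with the replicate block, 3 without the expression filter and 41 with DESeq2 (30 higher in smr1, 11 lower), which also called SMR1 (log2 fold change -1.47, adjusted p = 0.0115).

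The log2 ratio of the primary wall class sum was -0.06, turned to 0.0060 on the deposited TPM scale, and ran from -0.13 to 0.010 without any one library. That of the secondary wall class was -0.23, between -0.29 and -0.19 without any one library. It was weaker on the deposited TPM scale, at -0.17, and without TMM factors, at -0.18. The ratio of secondary to primary CESA ran from -0.28 to -0.09. Members lying below Col-0 in every smr1 library were 2 in place of 4 without TMM factors or on the TPM scale. Secondary wall partners lying below were 6 in place of 10 without TMM factors and 7 on the TPM scale. The share of all genes lying below fell too, from 10.1% to 6.24% without TMM factors and 5.89% on the TPM scale. The counts with these other scalings were added after seeing the data, and the cause was not tested. Replicate numbers 2 and 4 occur in both groups, and the replicate 2 minus replicate 4 differences correlated at 0.329 across genes, which are not independent, but nothing in the labels ties same-numbered samples. Over all genes the libraries did not group by genotype. The chi-square per degree of freedom was lowest between smr1 replicate 2 and Col-0 replicate 2, at 14.8. It was 43.8 between the Col-0 libraries and 29.9 between smr1 replicate 4 and Col-0 replicate 4. With the replicate block, which leaves 1 residual degree of freedom, COB was at -0.0047 and the class ratio at -0.12. Counting error was at most 1.81% of any member's value.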
